A study of Bos taurus with 54 samples.

Results

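Monocyte marker genes were followed in the whole blood of 15 male Holstein calves before and after 12 h of heat exposure. The set holds 9 genes, CD14, CD163, CSF1R, CX3CR1, VCAN, CD68, FCN1, CCR2 and MSR1, chosen by symbol from the 32637 genes counted in each library, and all 9 were counted. On ARS-UCD2.0, RefSeq places CD14 at chr7:51762889-51765832, CSF1R at chr7:61380050-61411558 and VCAN at chr7:83356741-83476755. CX3CR1 lies at chr22:12569309-12583388 and CCR2 at chr22:53041056-53049209. CD163 lies at chr5:101785953-101822416, CD68 at chr19:27312058-27314114, FCN1 at chr11:105441477-105450292 and MSR1 at chr27:20909945-20990322. Counts were summed over each whole gene. Blood was drawn in the morning at thermoneutral temperature (control) and in the evening directly at the end of the heat exposure (heat stress). The time of day and the heat exposure therefore cannot be told apart. Red cells were lysed and the remaining leukocyte pellet was extracted, so no cell type was sorted. The animals carried no stated genetic or drug treatment, and their age was not given in the sources used here. Each RNA was made into a library with a Takara kit (SMART-Seq v4 3′ DE), a Lexogen kit (QuantSeq 3′), or both, and both kits read the 3′ end of a transcript. Each kit gave 13 control and 13 heat stress libraries from 14 calves, of which 12 had a library at both times. The libraries of animal 20, 1 per kit, were left out because the labels and the study's sample table disagree on their time.

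The sample numbers fall into a lower and a higher block, split at 200 and called run 1 and run 2 here. Run 1 held 8 calves and run 2 held 7 calves, including animal 20, so the runs share no animal. The labels do not say what the numbers stand for. A difference between the runs and a difference between their animals cannot be told apart.

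Monocytes are circulating phagocytes that leave the bone marrow, patrol the vessel wall or enter tissues, and become macrophages or dendritic cells there. Classical monocytes, which are rich in CD14 and CCR2, are the main population in cattle, as in humans, and nonclassical monocytes carry more CX3CR1. Their marker genes cover several tasks, namely the recognition of microbes (CD14, FCN1), growth factor and chemokine signals (CSF1R, CX3CR1, CCR2), scavenging and lysosomal uptake (CD163, MSR1, CD68) and the cell's matrix coat (VCAN). Several of them, among them CD14, FCN1 and CD68, are also transcribed in granulocytes or other myeloid cells, and CX3CR1 is also carried by natural killer and T cells.

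Levels are counts per 1000000 counts on genes (CPM), with each library's total scaled by its factor from the trimmed mean of M values (TMM) over the libraries of its kit. Levels of a gene were compared between libraries only, never between genes. Counts on genes ranged from 5140595 to 20699030 in Takara libraries and from 4516761 to 15607291 in Lexogen libraries other than the heat stress library of animal 15, which held 58521751. The TMM factors of Takara libraries ran from 0.718 to 1.24. The choice of scaling matters in this kit, because the median log2 fold change of all genes between times was −0.05 with TMM and −0.27 with plain totals, and the share of higher genes among those called was 63.8% and 37.4%. Other scalings were computed for the 9 markers and not for the genes of other lists. Each group held 1 library per calf. All 9 markers had counts in every Takara library, with a lowest count of 14 (MSR1), and 8 of 9 had counts in every Lexogen library. At least 97.4% of the counts of each marker lay on the sense strand.

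Over all Takara libraries, 4 of the 9 markers rose with heat stress and none fell, in a test without the animal as a block. CD163, FCN1, CD68 and VCAN passed the test, an edgeR quasi-likelihood test of time with a Benjamini-Hochberg adjusted p under 0.05 over 12620 genes. The other 5 markers had log2 fold changes between 0.01 and 0.28 and did not pass. In the same test 28.9% of all genes were called, 18.4% as higher. The median log2 fold change was 0.28 over the 9 markers and −0.05 over all genes. In bulk blood, fewer monocytes and less marker RNA per monocyte cannot be told apart, nor can their opposites.

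**Figure D1:**
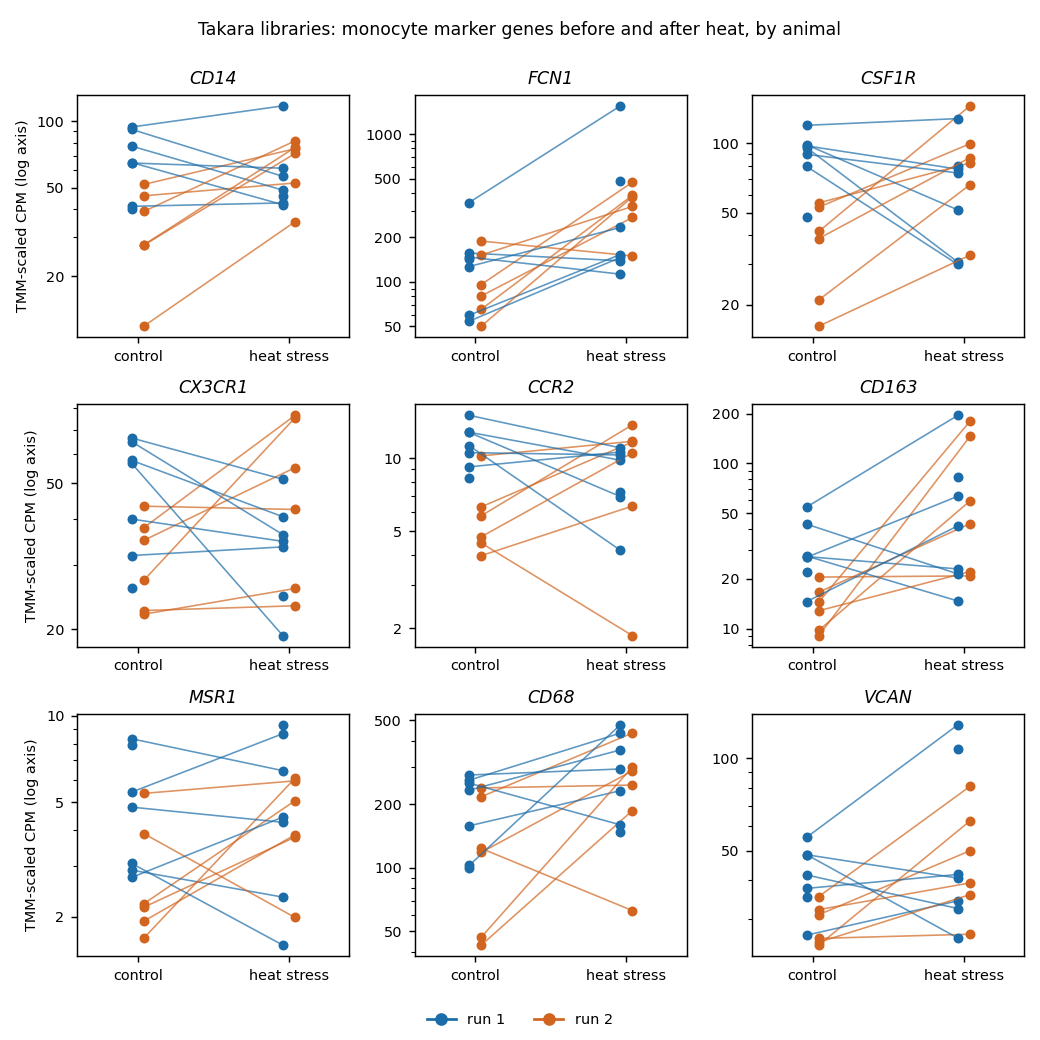
Levels of the 9 monocyte marker genes in Takara libraries, in TMM-scaled CPM on a log axis, at the control and heat stress times, with blue for run 1, orange for run 2 and a line joining the libraries of 1 calf (points without a line have no partner). The orange lines of CD14 and CSF1R all go up (6 of 6), while most blue lines go down (4 of 6 and 5 of 6).

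Among the genes that recognise microbes, FCN1 rose and CD14 did not pass the test. FCN1 encodes M-ficolin, a lectin that binds sugars on microbes and starts the lectin pathway of complement. Its Takara level was 50.1, 127 and 344 CPM (lowest, median and highest) in the 13 control libraries and 112.7, 273 and 1554 CPM in the 13 heat stress libraries. The ranges overlapped, and the median of the heat stress libraries lay below the highest control library. The log2 fold change was 1.55 ± 0.38 (SE, n = 13 and 13, adjusted p = 0.00342, edgeR), or 2.93-fold, and 9 of 12 pairs were higher under heat stress. CD14, the receptor that hands bacterial lipopolysaccharide to TLR4, lay at 11.9, 46.1 and 94.2 CPM in the controls and at 35.2, 56.4 and 117.4 CPM under heat stress. Its log2 fold change was 0.26 ± 0.24 (95% interval −0.21 to 0.72, adjusted p = 0.425, edgeR).

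Among the scavenger and lysosomal genes, CD163 and CD68 rose in this test, and CD68 lost the call with the animal as a block. CD163 encodes the receptor that clears complexes of haemoglobin and haptoglobin. Its Takara level was 9.06, 20.5 and 54.4 CPM in the controls and 14.7, 43.1 and 195 CPM under heat stress. The heat stress libraries were spread over a wider range, and 3 of them (animals 40, 16 and 7) lay above 140 CPM. The log2 fold change was 1.62 ± 0.40 (adjusted p = 0.00368, edgeR), or 3.08-fold, and 9 of 12 pairs were higher. CD68, a heavily glycosylated membrane protein of late endosomes and lysosomes, lay at 43.1, 158 and 275 CPM in the controls and at 62.8, 288.2 and 476 CPM under heat stress. It differed by 0.76 ± 0.29 on the log2 scale (adjusted p = 0.0493, edgeR), with 10 of 12 pairs higher. MSR1, a class A scavenger receptor for modified lipoproteins and bacterial surfaces, had 1.69, 3.07 and 8.32 CPM in the controls and 1.59, 4.45 and 9.31 CPM under heat stress. Its log2 fold change was 0.28 ± 0.28 (95% interval −0.27 to 0.83) and did not pass.

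VCAN encodes versican, a large proteoglycan of the extracellular matrix that is typical of classical monocytes. It lay at 24.6, 35.2 and 55.3 CPM in the controls and at 25.9, 40.7 and 129 CPM under heat stress, so that most libraries of both times covered the same range. The log2 fold change was 0.60 ± 0.23 (adjusted p = 0.048, edgeR), and 9 of 12 pairs were higher. On plain totals 7 of the 12 pairs were higher.

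The 3 signal receptors did not pass in either direction over all animals. CSF1R, the receptor for the growth factors CSF1 and IL34 on which most monocytes and macrophages depend, had 16.2, 55.3 and 120 CPM in the controls and 29.9, 77.4 and 145 CPM under heat stress (log2 fold change 0.21 ± 0.28, 95% interval −0.34 to 0.76). CX3CR1, the receptor for fractalkine on the vessel wall, had 22.01, 37.9 and 66.5 CPM in the controls and 19.2, 36.3 and 76.6 CPM under heat stress (0.03 ± 0.22, −0.40 to 0.45). CCR2, which draws monocytes out of the marrow along CCL2, had 3.98, 9.21 and 15.0 CPM in the controls and 1.87, 10.3 and 13.7 CPM under heat stress (0.01 ± 0.24, −0.46 to 0.48). For all 3 the interval left out a change of 1 log2 unit in either direction. For CX3CR1 and CCR2 6 of 12 pairs were higher, and for CSF1R 7 of 12.

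With the animal as a block, 2 of the 4 Takara calls remained. CD163 had a log2 fold change of 1.22 ± 0.43 (adjusted p = 0.0486, edgeR) and FCN1 of 1.32 ± 0.30 (adjusted p = 0.0127, edgeR), where 14.9% of all genes were called higher. CD68 (0.81, adjusted p = 0.0523, edgeR) and VCAN (0.37, adjusted p = 0.146, edgeR) lost the call. Both calls were also lost with plain totals as library size (0.42 and 0.30 on the log2 scale), and leaving out 1 animal lost CD68 in 9 of 14 fits (without animal 7, 15, 16, 18, 19, 23, 32, 36 or 40) and VCAN in 10 of 14 (without animal 7, 14, 15, 16, 18, 23, 29, 32, 36 or 40). CD163 and FCN1 passed in all 14 of these fits. When the library of animal 20 was entered as a control, 0 of 12652 genes and 0 markers were called in the edgeR test, with 3804 genes at an unadjusted p under 0.05.

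In Lexogen libraries FCN1 was the 1 marker of 9 that passed, again higher under heat stress. In this kit 5.55% of 11108 genes were called, 5.09% as higher. FCN1 lay at 34.8, 81.6 and 315.1 CPM in the 13 controls and at 29.8, 223 and 865 CPM in the 13 heat stress libraries (log2 fold change 1.32 ± 0.36, adjusted p = 0.0257, edgeR). The groups overlapped at both ends, and 9 of 12 pairs were higher. The call was lost with the animal as a block (0.95, adjusted p = 0.255, edgeR) and without animal 15, 16, 18 or 36 (adjusted p up to 0.110, edgeR), animal 15 being the deepest library.

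**Figure D2:**
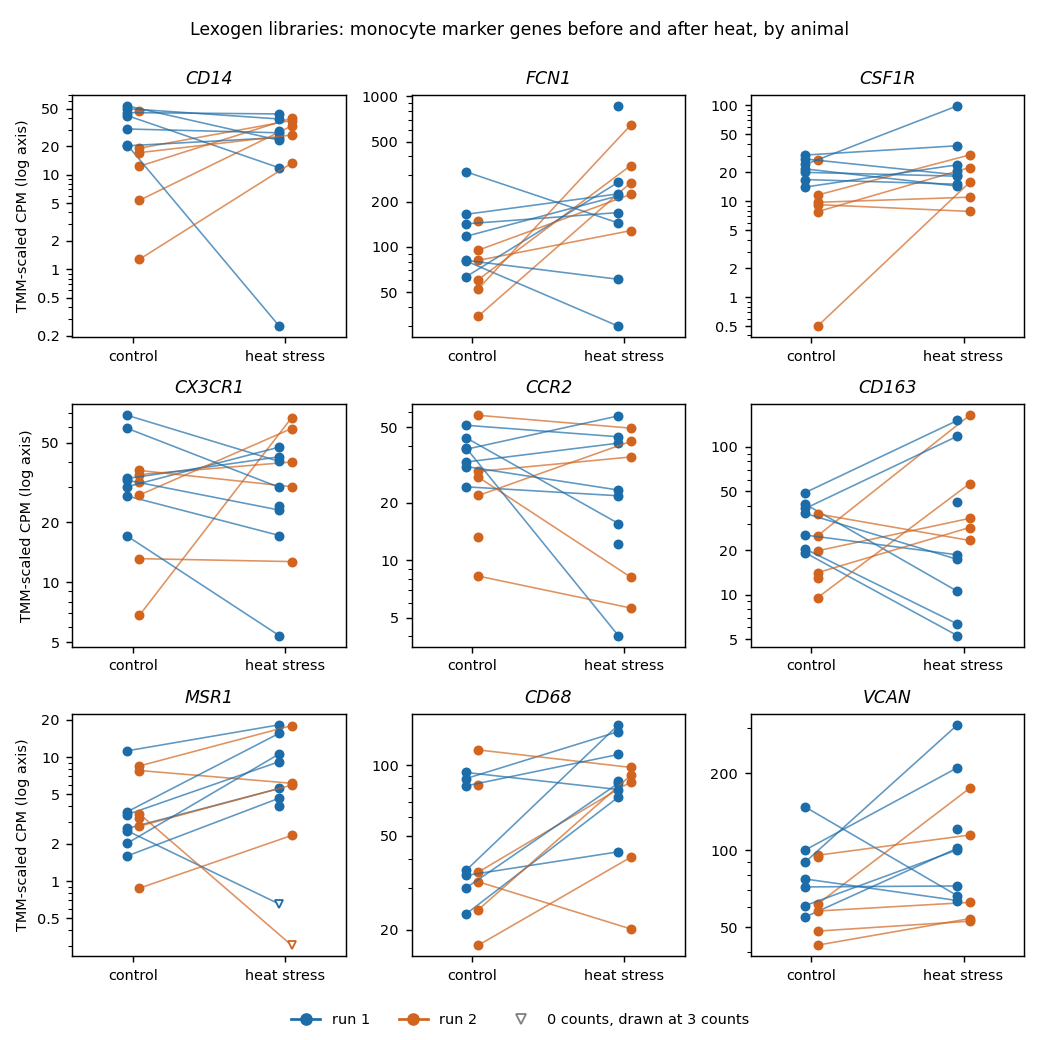
Levels of the same genes in Lexogen libraries, drawn as for Takara, with open triangles at the level of 3 counts for libraries with 0 counts. FCN1 went up in 9 of 12 lines, CD14 in run 2 went up in 5 of 5, and MSR1 had 0 counts in 2 heat stress libraries.

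The other 8 markers did not pass in Lexogen, where standard errors ran from 0.26 to 0.60, beside 0.22 to 0.40 in Takara. CD163 went from 9.54, 25.01 and 49.1 CPM to 5.28, 28.4 and 163 CPM, with the lowest and the highest library both under heat stress (log2 fold change 0.97 ± 0.43, adjusted p = 0.223, edgeR). With the animal as a block its value was 0.22 ± 0.45, and 6 of 12 pairs were higher. CD68 differed by 0.66 ± 0.30, VCAN by 0.59 ± 0.26, CSF1R by 0.60 ± 0.39 and MSR1 by 0.90 ± 0.60 on the log2 scale. CD14 (−0.07 ± 0.42), CX3CR1 (0.07 ± 0.32) and CCR2 (−0.21 ± 0.35) had intervals that include 0. So did CSF1R (−0.17 to 1.37) and MSR1 (−0.27 to 2.08).

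Single Lexogen libraries held very few counts of a marker. CD14 had 1 count in the heat stress library of animal 18, whose total of 4604914 counts was near the lowest, while the Takara library of the same RNA held 671. MSR1 had 0 counts in the heat stress libraries of animals 18 and 36, where 3 counts would have been 0.651 and 0.304 CPM before TMM scaling, and 25 and 16 counts in the Takara libraries of the same RNA. CSF1R had 3 counts in the control library of animal 14.

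The kits were set against each other in the 48 libraries whose RNA went through each kit, blocked on that RNA. The difference in the heat change between kits passed for 0 of the 9 markers and for 0 of 13354 genes (0%, edgeR), where 526 genes and 0 markers had an unadjusted p under 0.05. The differences (Takara minus Lexogen) ran from −0.51 ± 0.41 (CSF1R) to 0.57 ± 0.32 (CD163) on the log2 scale. In the 10 calves with a pair in both kits, the direction was the same in both kits in 9 calves for VCAN and CD68, in 8 for CD14 and CD163, and in 5 for CCR2.

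Split by run, the heat change of the markers took different values in the 2 sets of calves. In Takara run 1 (7 control and 7 heat stress libraries) 0 of 9 markers passed in edgeR and 0 in DESeq2, and 2 had an unadjusted p under 0.05 in edgeR, where 20.6% of 12791 genes were called. In Takara run 2 (6 and 6) 3 markers rose, CD163, FCN1 and CSF1R, where 7.35% of 12661 genes were called, 4.8% as higher. The median log2 fold change of the 9 markers was 0.07 in run 1 and 0.98 in run 2, beside −0.05 and 0.01 over all genes. All 9 markers had a positive value in run 2 with either scaling, and in run 1 5 of 9 had one with TMM, where MSR1 turned negative on plain totals (−0.16).

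**Figure D3:**
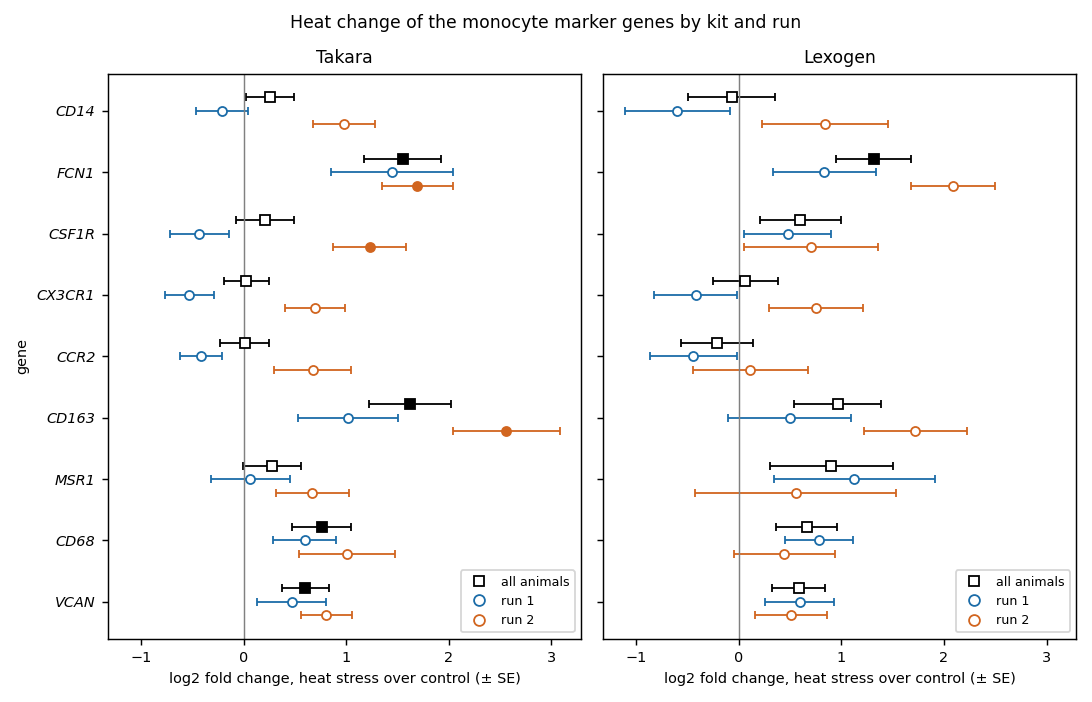
Log2 fold change of heat stress over control for the 9 markers in Takara (left) and Lexogen (right), with the SE, for all animals (squares), run 1 (blue) and run 2 (orange). Filled symbols passed the test. In Takara the run 1 values of CD14, CSF1R, CX3CR1 and CCR2 lie between −0.53 and −0.21 and their run 2 values between 0.67 and 1.23.

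CSF1R showed the widest gap between the runs in Takara. In run 1 it went from 98.6 to 51.5 CPM in animal 12, from 95.9 to 30.6 in animal 15, from 79.5 to 29.9 in animal 18, from 97.6 to 77.4 in animal 19 and from 89.7 to 74.5 in animal 41, and only in animal 40 was it higher under heat stress (120 to 128). In run 2 it went from 55.3 to 82.3 CPM in animal 3, from 52.9 to 99.6 in animal 7, from 20.99 to 66.2 in animal 14, from 41.6 to 145 in animal 16, from 38.7 to 86.8 in animal 32 and from 16.2 to 32.8 in animal 36. All 6 pairs of run 2 were thus higher under heat stress, and 5 of 6 pairs of run 1 were lower. The log2 fold change was −0.43 ± 0.29 in run 1 (adjusted p = 0.292, edgeR) and 1.23 ± 0.35 in run 2 (adjusted p = 0.0498, edgeR). The lower run 1 values were not repeated in Lexogen, where CSF1R had 0.48 ± 0.42 in run 1 and 0.71 ± 0.65 in run 2. In that kit 3 of 7 pairs of run 1 and 4 of 5 pairs of run 2 were higher. Animal 12 went from 24.2 to 98.9 CPM there, opposite to its Takara pair.

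CD14 had the same order as CSF1R in Takara. Its run 1 level was 40.1, 65.1 and 94.2 CPM in the controls and 41.99, 48.9 and 117.4 CPM under heat stress, and 2 of 6 pairs were higher (0 of 6 on plain totals). Its run 2 level was 11.9, 33.4 and 51.9 CPM in the controls and 35.2, 73.4 and 81.6 CPM under heat stress, and 6 of 6 pairs were higher. The log2 fold change was −0.21 ± 0.25 in run 1 and 0.98 ± 0.30 in run 2 (adjusted p = 0.0588, edgeR). CX3CR1 (−0.53 ± 0.24 and 0.69 ± 0.29) and CCR2 (−0.41 ± 0.21 and 0.67 ± 0.37) also had opposite signs in the 2 runs, each with 1 of 6 pairs higher in run 1 and 5 of 6 in run 2. On plain totals 3 of 6 run 2 pairs were higher for CX3CR1 and 4 of 6 for CCR2, with 1 of 6 for each in run 1. With plain totals as library size, CX3CR1 (−0.82, adjusted p = 0.0393, edgeR) and CCR2 (−0.70, adjusted p = 0.0498, edgeR) fell in run 1. In that fit 1403 of 12791 genes were called lower, beside 751 with TMM. The share of higher genes among all calls went from 71.4% to 41.4%.

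CD163 had groups that did not overlap in Takara run 2 only. In every other kit and run its groups overlapped, and those of the other markers overlapped throughout. In Takara run 2 it lay between 9.06 and 20.5 CPM in the 6 controls and between 20.8 and 180 CPM in the 6 heat stress libraries, with a log2 fold change of 2.56 ± 0.52 (adjusted p = 0.0365, edgeR), where 7.35% of all genes were called. The gap was narrow, since animal 3 went from 20.5 to 20.8 CPM, while animal 7 went from 9.06 to 146 and animal 16 from 14.5 to 180. The share of all genes whose groups did not overlap was not computed. FCN1 had positive values in both runs (1.45 ± 0.60, adjusted p = 0.0918, and 1.69 ± 0.35, adjusted p = 0.0365, edgeR), with 4 of 6 and 5 of 6 pairs higher. CD68 (0.60 ± 0.31 and 1.01 ± 0.47), VCAN (0.47 ± 0.34 and 0.81 ± 0.25) and MSR1 (0.07 ± 0.39 and 0.67 ± 0.36) were positive in both.

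The run 2 calls rested on nearly every calf. Without animal 7, 14, 16, 32 or 36 none of the markers passed, with 0 to 25 genes called in all. Without animal 3, 5 markers passed (CD14, CD163, CSF1R, VCAN and FCN1), where 1505 of 12662 genes were called, 936 as higher. With the animal as a block, CSF1R (1.23 ± 0.20, adjusted p = 0.0421, edgeR) and CD14 (1.07 ± 0.21, adjusted p = 0.0494, edgeR) rose and CD163 (2.10, adjusted p = 0.061) and FCN1 (1.79, adjusted p = 0.0568) did not pass, where 0.434% of all genes were called higher.

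Counted per calf with TMM, 7 to 9 of the 9 markers were higher under heat stress in each of the 6 Takara pairs of run 2, and 2 to 6 of 9 in each of the 6 pairs of run 1. These counts depend on the scaling, since some values changed sign on plain totals. In animal 18 (run 1) CD14 went from 0.05 to −0.60 and VCAN from 0.37 to −0.28 log2 units. In animal 36 (run 2) CX3CR1 went from 0.23 to −0.13. In Lexogen the counts were 6 to 8 in the 5 pairs of run 2 and 2 to 6 in the 7 pairs of run 1. The 2 kits read RNA of largely the same calves and are not independent samples of them. In Lexogen run 2 heat stress libraries (animals 3, 14, 16, 32 and 36), CD14 was 37.5, 39.7, 32.8, 26.3 and 13.2 CPM, each above the control of the same calf. FCN1 in the same libraries was 128, 267, 347, 223 and 643 CPM, also above the control in 5 of 5 pairs.

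Lexogen gave no call within a run. In run 1 (7 and 8 libraries) 0 of 9 markers passed in edgeR and 0 in DESeq2, with 1 at an unadjusted p under 0.05 in edgeR, where 3.49% of 11532 genes were called by edgeR. In run 2 (6 and 5 libraries) edgeR called 0 of 11459 genes (0%), with 1275 genes and 2 markers at an unadjusted p under 0.05, and DESeq2 called 328 genes and 1 marker, FCN1. The largest marker changes in Lexogen run 2 were FCN1 (2.09 ± 0.41, adjusted p = 0.110, edgeR) and CD163 (1.72 ± 0.50, adjusted p = 0.189, edgeR).

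The difference of the heat change between runs was tested as such. In Takara it passed for 0 of 9 markers without a block, with 4 at an unadjusted p under 0.05 (DESeq2 was not run for this difference), where 2.27% of 13767 genes were called by edgeR. All 9 differences (run 2 minus run 1) were positive with animal 20 left out (VCAN, CD68 and FCN1 were negative with it as a control), with a median of 1.06 beside 0.02 over all genes. With the animal as a block it passed for CSF1R and CD14, where 0.254% of all genes were called as higher in run 2. The differences were 1.95 ± 0.32 for CSF1R (adjusted p = 0.00977, edgeR) and 1.32 ± 0.28 for CD14 (adjusted p = 0.0349, edgeR). CX3CR1 followed with 1.14 ± 0.31 (adjusted p = 0.0819, edgeR). CSF1R passed in all 14 blocked fits that left out 1 animal, with differences of 1.77 to 2.11. CD14 passed in 6 of 14 and lost the call without animal 12, 14, 15, 16, 19, 32, 36 or 41. In Lexogen the difference passed for 0 of 9 markers, with 0 at an unadjusted p under 0.05, where edgeR called 0.0222% of 13484 genes. With the animal as a block it again passed for 0 markers, with 4 at an unadjusted p under 0.05, namely CD14 (2.85 ± 0.85, adjusted p = 0.183, edgeR), FCN1 (2.17 ± 0.59), CD163 (1.95 ± 0.79) and CX3CR1 (1.34 ± 0.64). The Lexogen value for CSF1R was 0.24 ± 0.75 without the block and 1.18 ± 0.83 with it.

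The level before heat also differed between the runs. In the Takara control libraries, 4 of 9 markers were lower in run 2 (6 calves) than in run 1 (7 calves), where 8.13% of 12977 genes were called, 3.06% as lower. These were CSF1R (log2 difference −1.25 ± 0.27, adjusted p = 0.0137, edgeR), CCR2 (−0.93 ± 0.22, adjusted p = 0.0196), CD163 (−1.14 ± 0.28, adjusted p = 0.0216) and CD14 (−0.99 ± 0.28, adjusted p = 0.0442). All 9 values were negative, with a median of −0.79 beside 0.00 over all genes. CSF1R lay at 48.2, 95.9 and 120 CPM in the run 1 controls and at 16.2, 40.1 and 55.3 CPM in the run 2 controls. The heat stress levels of CSF1R were closer, with medians of 74.5 and 84.5 CPM. These controls are the same libraries that enter the heat change of each run, so a low control level and a large heat change are not separate measurements.

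**Figure D4:**
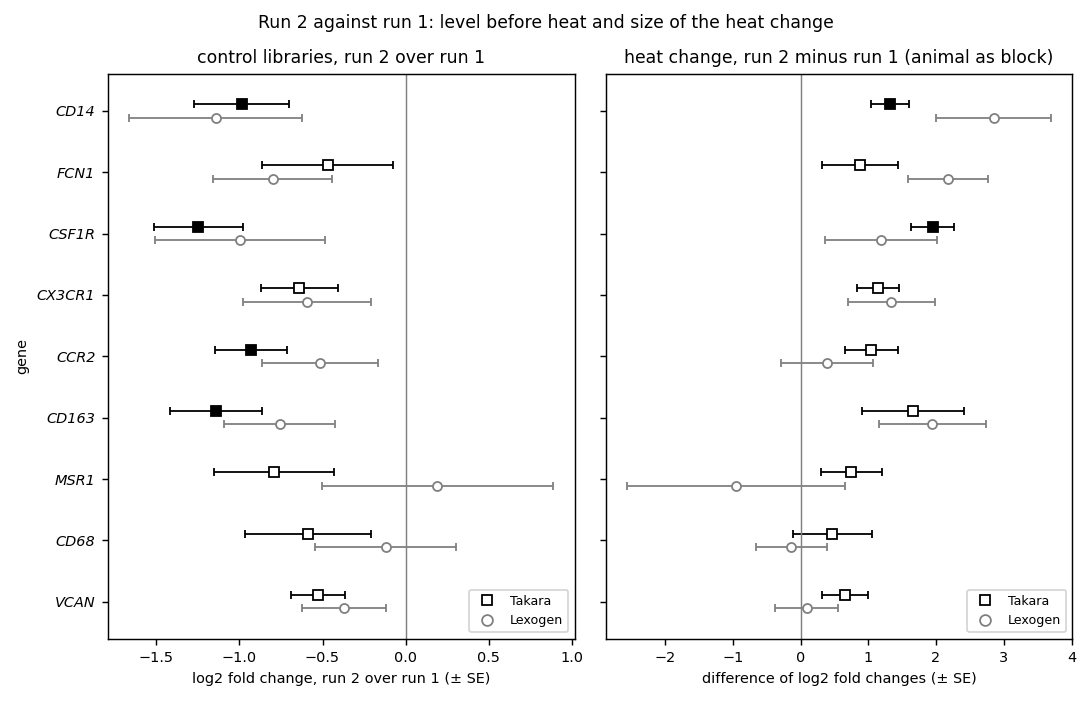
Run 2 against run 1 for the 9 markers, in Takara (black squares) and Lexogen (grey circles), with the SE. The left panel gives the log2 difference between control libraries, negative for all 9 markers in Takara and for 8 of 9 in Lexogen, and the right panel the difference of the heat change with the animal as a block, where CSF1R and CD14 in Takara passed (filled).

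Leaving out 1 animal kept CSF1R and CCR2 lower in all 13 fits of the Takara controls, while CD163 lost the call without animal 36 (adjusted p = 0.0549, edgeR) and CD14 without animal 12, 14, 15, 16, 19, 32, 36, 40 or 41. With plain totals 6 of 9 markers were lower, CX3CR1 and VCAN being added. In that fit 851 of 12977 genes were called lower, beside 397 with TMM. The share of higher genes among all calls went from 62.4% to 32.4%. In the Lexogen controls edgeR called 0 of 11844 genes (0%), with 1056 genes and 3 markers at an unadjusted p under 0.05. Of the 9 values there 8 were negative, with CD14 at −1.14 ± 0.52 and CSF1R at −0.995 ± 0.51.

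The runs also differed in other measures of the libraries. The share of counts on 3 ribosomal RNA genes was 4.03% to 5.19% in the Takara controls of run 2 and 1.68% to 4.07% in the other Takara libraries. The summed level of 5 platelet markers was 1214 to 2731 CPM in the Takara controls of run 1. It was 2359 to 6317 CPM in those of run 2. PF4, with a median of 2014.5 CPM in Takara, gives this sum most of its weight. Of the 4 platelet markers tested, 2 were higher in run 2, where 658 of 12977 genes were called higher. In the same fit 1 natural killer marker was higher, and 1 neutrophil marker and 1 receptor partner were lower. In the Lexogen controls 0 of 4 platelet markers were called, where 0 of 11844 genes were. The part of these measures in the differences between runs, or in the heat change within run 2, was not tested.

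Other genes of the monocyte system were read from lists by role. Of the ligands of the receptors (CSF1, IL34, CX3CL1, CCL2 and CCL8), only CSF1 had enough counts to be tested in Takara (0.25 ± 0.45, not passing), at a median level of 5.25 CPM. IL34, CX3CL1, CCL2 and CCL8 had 0 counts in 16, 13, 10 and 3 of the 26 Takara libraries.

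Most partners of the receptors rose. Of 6 listed, 5 were tested in Takara and 5 rose (LBP was not tested), where 18.4% of all genes were called higher, and in Lexogen 4 of 5 rose, where 5.09% were. TLR4, which receives lipopolysaccharide from CD14, rose by 1.62 ± 0.28 in Takara (adjusted p = 0.000418, edgeR) and by 1.19 ± 0.35 in Lexogen (adjusted p = 0.0351, edgeR). Its partner LY96 rose by 1.54 ± 0.33 and 1.10 ± 0.29, and the adaptor MYD88 by 1.68 ± 0.35 and 1.41 ± 0.34 on the log2 scale. HP, encoding haptoglobin, the plasma protein whose complex with haemoglobin CD163 takes up, rose by 2.09 ± 0.44 in Takara and 1.82 ± 0.44 in Lexogen. HMOX1, which breaks down the haem, rose by 0.72 ± 0.27 in Takara (adjusted p = 0.0446, edgeR). TLR4, MYD88 and HP are also transcribed in neutrophils.

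Of the 8 transcription factors of the lineage, 2 rose in Takara and none fell, where 18.4% of all genes were called higher. SPI1, encoding PU.1, the factor that myeloid cells need to form, rose by 1.15 ± 0.27 (adjusted p = 0.003, edgeR) and in Lexogen by 1.07 ± 0.30 (adjusted p = 0.0305, edgeR). CEBPA, which acts in both granulocyte and monocyte precursors, rose by 1.77 ± 0.50 in Takara at a median level of 1.44 CPM. Among those that did not pass in Takara, IRF8 was at 0.02 ± 0.19, NR4A1 at −0.17 ± 0.29, ZEB2 at −0.29 ± 0.14, CEBPB at 0.53 ± 0.53 and KLF4 at 0.75 ± 0.33. In Lexogen SPI1 was the 1 factor called of 6 tested, where 5.09% of all genes were called higher. Only 2 of these 6 had positive values there, with a median of −0.13 beside −0.08 over all genes.

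Of 12 other genes used for monocytes, 8 were tested in Takara, 4 rose and none fell, where 18.4% of all genes were called higher. These were ITGAM (1.16 ± 0.27), CSF2RA (0.96 ± 0.24), SIRPA (0.93 ± 0.26) and CSF2RB (0.74 ± 0.20), an integrin chain, the GM-CSF receptor chains and a receptor for CD47, all of which neutrophils carry as well. CSF2RA was the 1 of 8 that rose in Lexogen (1.29 ± 0.39, adjusted p = 0.0443, edgeR), where 5.09% of all genes were called higher. The other 4 tested, LYZ (−0.15 ± 0.32), CTSS (−0.02 ± 0.22), CD86 (−0.20 ± 0.26) and MRC1 (−0.56 ± 0.40), did not pass.

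Markers of other blood cells moved in the same libraries. Of the 8 neutrophil markers 7 were tested in Takara, 6 rose and none fell, with a median log2 fold change of 1.80, where 18.4% of all genes were called higher and the median over all genes was −0.05. These were MMP9, S100A8, S100A12, CXCR2, CXCR1 and LTF, with log2 fold changes from 2.44 ± 0.45 (MMP9) to 1.45 ± 0.42 (LTF). The summed level of all 8 neutrophil markers was 4923 to 14997 CPM in run 1 controls and 9514 to 90229 CPM in run 1 heat stress libraries. In run 2 it was 3535 to 16692 and 3058 to 69743 CPM. Such a sum gives most weight to the genes with many counts. S100A12 and S100A8 had Takara medians of 8518 and 2175 CPM, beside 7.40 for MMP9 and 2.69 for LTF. In Lexogen 4 of 6 tested rose (MMP9, S100A8, S100A12 and CXCR2), where 5.09% of all genes were called higher. The part of neutrophils in the marker changes was not tested. MPO, the granule enzyme made in neutrophil precursors, had 0 counts in 10 of 26 Takara libraries.

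**Figure D5:**
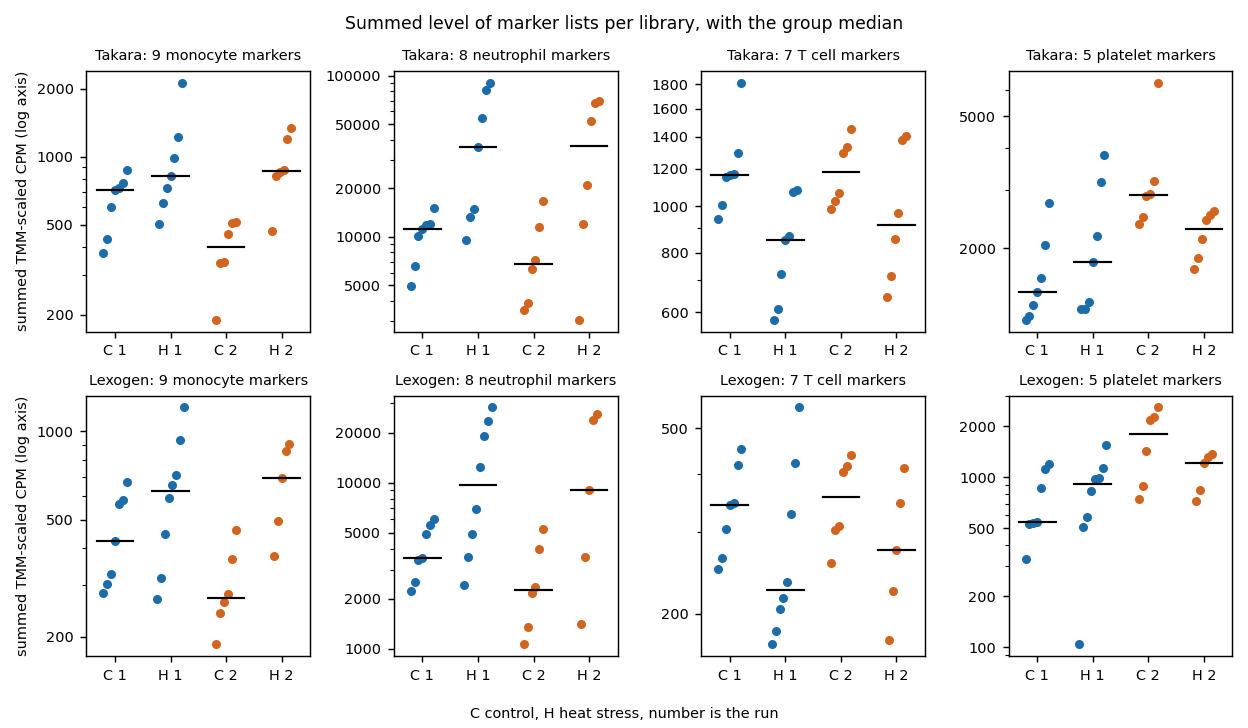
Summed TMM-scaled CPM (log axis) of the 9 monocyte, 8 neutrophil, 7 T cell and 5 platelet markers in each Takara (top) and Lexogen (bottom) library, by time and run, with the group median as a line. The Takara monocyte sum has medians of 710, 825, 399 and 864 CPM from left to right, and the Takara neutrophil sum of 11130, 36312, 6752 and 36688 CPM in the same order. Sums give most weight to genes with many counts, in Takara CD68 and FCN1 for monocytes, S100A12 for neutrophils and PF4 for platelets.

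Among the other lists, 3 of 7 T cell markers fell in Takara (CD3E −0.55 ± 0.19, CD3D −0.48 ± 0.17 and CD3G −0.45 ± 0.16), 1 of 6 B cell markers fell (BLK) and 1 of 4 natural killer markers rose (NCR1), where 10.5% of all genes were called lower and 18.4% higher. In Lexogen NCR1 was the 1 gene called of these 3 lists, again higher. None of the tested eosinophil, basophil, dendritic cell, platelet and erythroid markers was called between times over all animals in either kit by edgeR. CLEC9A, a marker of dendritic cells, had 0 counts in 11 of 26 Takara and 22 of 26 Lexogen libraries.

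The markers varied together across libraries to differing degrees. Against the mean of the other 8 markers (log2 CPM, centred by gene), CD14 had a Pearson r of 0.84, CSF1R 0.73, VCAN 0.72 and CD163 0.69 over the 26 Takara libraries, while CX3CR1 and FCN1 had 0.34 and MSR1 0.31. In Lexogen CD14 was again the highest at 0.66. The 5 other genes closest to the mean of the 9 markers in Takara, of 10910 named genes, were CTSB (0.90), CTSH (0.87), VNN1 (0.87), HMOX1 (0.86) and MCEMP1 (0.84), 2 lysosomal cathepsins, a pantetheinase, the haem-degrading enzyme and a membrane protein first described in mast cells. Their values over the 26 Lexogen libraries were 0.55, 0.44, 0.44, 0.15 and 0.26. The points share calves and scaling factors, and the values describe these libraries.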

How the data were processed

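The deposited files hold read counts per gene, made by the authors with Trimmomatic 0.39 and STAR 2.7.10b on ARS-UCD2.0, per the labels and the study's methods, without normalization. The unstranded counts of 32637 genes were used, and sense counts were an alternative. Without molecular identifiers, counts can include PCR copies. Groups came from the sample titles. Markers and gene lists were chosen with earlier results of these data known.

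Genes were kept by filterByExpr, scaled by TMM and tested with edgeR 4.0.16 (R 4.3.3) quasi-likelihood tests of time, as in the study's model, with Benjamini-Hochberg adjustment over all genes and a threshold of 0.05. Standard errors were the log2 fold change over the root of F, and intervals (95%) span 1.96 SE. DESeq2 1.42.0, other scalings, no filter, leaving out each animal, both times for animal 20 and the animal as a block were alternatives. Libraries of a calf share a number, and their centred levels correlated with a median r of 0.23 in Takara (above 0.1 in 11 of 12) and 0.02 in Lexogen (2 of 12). All markers, and list genes called in a kit over all animals, are named by rule (other list genes were named after their values were seen), with the 5 genes of most similar pattern. The scripts were tested on simulated data. Sequences were not used here. The value of 1 list gene is not reported here.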

Additional observations from a re-analysis of the deposited data

Results flagged for a closer look

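Single libraries stood far from the others of their group (kit, time and run) by Dixon's test in 10 of 72 groups tested, each on the high side. The test was made on CPM without a log, and the groups share calves. The count can therefore not be set against a chance rate of about 1 in 20. For FCN1, animal 15 was highest in the Takara run 1 controls (344 CPM, next 156), under Takara heat stress (1554 CPM, next 481) and under Lexogen heat stress (865 CPM, next 269), and animal 41 was highest in the Lexogen run 1 controls (315.1 CPM, next 165). For CD163, animal 40 was highest under heat stress in Takara run 1 (195 CPM, next 83.0) and animal 16 in Lexogen run 2 (163 CPM, next 56.4). CD14 was highest in animal 40 under heat stress in Takara run 1 (117.4 CPM, next 61.4). CSF1R was highest in animal 12 under heat stress in Lexogen run 1 (98.9 CPM, next 37.96). MSR1 was highest in animal 12 in the Lexogen run 1 controls (11.3 CPM, next 3.63), and CCR2 in animal 7 in the Takara run 2 controls (10.2 CPM, next 6.31).

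The heat change differed between runs in Takara, with the animal as a block, for CD14 (1.32 log2 units higher in run 2) and CSF1R (1.95 higher).

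The libraries of animal 20, left out of all comparisons, lay above every control library of their kit for several markers. In Takara these were CD14 (106 CPM), CD163 (119.8 CPM), VCAN (91.5 CPM), CD68 (597 CPM) and FCN1 (720 CPM). In Lexogen they were CD14 (59.6 CPM), CD163 (85.9 CPM), VCAN (213 CPM) and FCN1 (726 CPM).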

How the results depend on the processing

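Of 9 markers, Takara called 4 over all animals, and 2 with plain totals, without the filter on low counts or with the animal as a block (replicate block), 0 with animal 20 as a control, and 2 to 4 with 1 animal left out. Of all genes, 3646 of 12620 were called in the main fit, 3488 with plain totals and 3163 with the block. Without the filter 4907 of 24553 were called, with animal 20 as a control 0 of 12652, and with 1 animal left out 2669 to 4082. Lexogen called 1, and 0 with the block or with animal 20 as a control, and 0 to 1 with 1 animal left out. Of all genes, 616 of 11108 were called there, and 66 with the block. With animal 20 as a control 2 of 11222 were called, and with 1 animal left out 348 to 747. Takara run 1 called 0, and 2 with plain totals, where 2630 and 2393 of 12791 genes were called. Takara run 2 called 3, and 5 with DESeq2 or with animal 20 as heat stress, 0 with it as a control, and 0 to 5 with 1 animal left out. The calls over all genes moved as well, from 931 of 12661 to 1941 of 22518 with DESeq2. They were 1771 of 12619 with animal 20 as heat stress, 0 with it as a control, and 0 to 1505 with 1 animal left out. Lexogen run 2 called 0, and 1 without the filter, with DESeq2 or with animal 20 as heat stress. Of all genes, 132 of 18912, 328 of 18912 and 17 of 11238 were called in these 3 fits. The Takara run difference called 0, 2 with the block, 0 to 1 with 1 animal left out (1, CSF1R, without animal 40), and 1 to 2 with both. The Takara controls gave 4, and 2 to 5 with 1 animal left out (2 without animal 36). Their calls over all genes were 1055 of 12977, and 503 (without animal 36) to 1497 with 1 animal left out. The last 2 sets of fits without 1 animal were chosen after seeing the data. The share of higher genes among Lexogen calls was 91.7%, and 52.0% without the filter. It was 94.3% in Lexogen run 1, and 82.6% with plain totals.

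Over all animals, signs turned only for markers without a call. With plain totals, Takara gave −0.0083 for CD14, −0.0399 for CSF1R, −0.17 for CX3CR1 and −0.21 for CCR2, and Lexogen −0.0044 for CX3CR1. With the block, Lexogen gave 0.19 for CD14 and −0.0023 for CX3CR1. With animal 20 as heat stress, CX3CR1 was −0.0019 in Takara and −0.0033 in Lexogen, and CD14 0.0543 in Lexogen. CCR2 in Takara was −0.0067 without the filter and −0.0484 with animal 20 as a control. With 1 animal left out, Takara ranged from −0.11 to 0.13 for CX3CR1 and from −0.0907 to 0.0987 for CCR2, and Lexogen from −0.19 to 0.065 for CD14 and from −0.15 to 0.18 for CX3CR1. Within runs, the block turned CD163 in Lexogen run 1 (0.50 to −0.59), CCR2 in Lexogen run 2 (0.11 to −0.21) and MSR1 in Takara run 1 (0.07 to −0.06). In the run difference, animal 20 as a control turned FCN1 (−0.68), CD68 (−0.24) and VCAN (−0.09) in Takara, and CSF1R (−0.10) and FCN1 (−0.01) in Lexogen. The Lexogen run difference of VCAN (−0.12) was 0.11 with plain totals, 0.09 with the block and 0.21 with animal 20 as heat stress. None of these values was called. The causes were not tested. Lexogen libraries with 0 to 3 counts of a marker limit CD14, CSF1R and MSR1 there.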

Other observations

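The markers of animal 20 not given above were 66.6 CPM for CSF1R, 33.1 CPM for CX3CR1, 13.6 CPM for CCR2 and 2.92 CPM for MSR1 in Takara. In Lexogen they were 28.1 CPM for CSF1R, 11.8 CPM for CX3CR1, 114.7 CPM for CD68, 22.9 CPM for CCR2 and 2.55 CPM for MSR1.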
